A study of Homo sapiens with 14 samples.

Results

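The transcripts of EGFR, of 5 of its ligands (HBEGF, AREG, EREG, TGFA and BTC) and of its feedback inhibitor ERRFI1 were followed in MDA-MB-231 cells treated with RBI2 or CX-5461. These 7 genes were taken by symbol from 60876 annotated genes. All 7 had enough reads to be tested, among 15426 genes that did. MDA-MB-231 is an established human breast cancer cell line without estrogen receptor expression. RBI2 is a ribosome biogenesis inhibitor, and CX-5461 blocks RNA polymerase I (Pol I), which transcribes the rRNA genes. There were 7 groups of 2 libraries: a control, 5 µM RBI2 at the labels 10, 30 and 120 min, and 5 µM CX-5461 at the same labels. All groups were of the same cell line, and the study's methods call the control untreated while its results speak of DMSO. Nothing in the labels says that the 2 replicates of a group were separate cultures, so the p-values measure only the spread between these libraries, which may be technical. The times given here are those of the labels, since the time codes in the names of the deposited files do not match them.

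EGFR is a receptor tyrosine kinase of the ErbB family. Its ligands are made as membrane-bound precursors, and metalloproteases such as ADAM10 and ADAM17 cut them from the cell surface, after which they bind EGFR on the same or a neighbouring cell and switch on the RAS and MAP kinase and PI3-kinase pathways. ERRFI1 (MIG6) is induced by this signal and binds the kinase domain of the receptor to shut it off. Several of the ligand genes are known as rapidly induced targets of the same pathway, and basal-like breast cancer cells are known for high EGFR.

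HBEGF and EREG were the members that passed the test against the control, and their promoters are shown for that reason. The sequences are the 250 bases before the RefSeq start (GRCh38.p14), in the direction of the gene. For HBEGF this is chr5:140346604-140346853 on the minus strand, where capitals mark GC boxes (GGGCGG or CCGCCC, searched on both strands). For EREG it is chr4:74364895-74365144 on the plus strand, where capitals mark a TATA box (TATAAA, searched on the gene's strand) and the core of a cAMP response element (TGACG or CGTCA, searched on both strands).
HBEGF: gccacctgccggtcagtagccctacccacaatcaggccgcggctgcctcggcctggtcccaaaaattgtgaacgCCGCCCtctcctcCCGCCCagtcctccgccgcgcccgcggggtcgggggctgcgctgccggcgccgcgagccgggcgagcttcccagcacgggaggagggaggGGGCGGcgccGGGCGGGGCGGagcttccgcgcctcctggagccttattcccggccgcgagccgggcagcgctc
EREG: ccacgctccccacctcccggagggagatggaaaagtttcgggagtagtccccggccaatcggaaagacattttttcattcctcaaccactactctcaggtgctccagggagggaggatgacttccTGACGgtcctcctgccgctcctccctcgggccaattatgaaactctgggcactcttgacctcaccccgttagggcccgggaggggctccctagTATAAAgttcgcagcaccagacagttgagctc
The HBEGF window held 5 GC boxes, which began 176, 163, 73, 63 and 58 bases before the start, and the last of these ran into the one before it. The EREG window held none, but it held a TATA box that began 32 bases and a TGACG that began 125 bases before the start. Among the 35116 promoter windows of the same length, 42.6% held a GC box, 6.8% a TATA box and 21.2% the response element core. Of the 7 members, 5 held a GC box (all but EREG and BTC), 2 a TATA box (AREG and EREG) and 3 the core (AREG, EREG and TGFA). The AP-1 motif TGANTCA, on both strands, was in 6.57% of all windows and in 0 of the 7, which says only that these letters are not in these windows. A match is a description of the sequence and was not tested as a site.

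Sequencing depth ran from 14112299 to 24849354 estimated reads per library (median 16305236). Control replicate 2 stood apart, with 20.6% of its reads on mitochondrial genes against 8.14% to 11.3% in every other library. Where leaving out 1 of the 2 control libraries changes the call or the direction of a value named against the control, the value without it is given too. The lone control library is then assumed to vary like the other groups. Without control replicate 1, far more of all genes passed with RBI2 at 120 min and CX-5461 at 10 min than with all 14 libraries. Of the 5 markers listed for the line, VIM (2779 to 3387 CPM), AXL (1196 to 1592 CPM), CD44 (870 to 1252 CPM) and CAV1 (364 to 525 CPM) were high in every library, and SPARC was low, at 8.65 to 11.6 CPM. The luminal markers PGR, ESR1 and CDH1 lay at 0 to 0.295 CPM and GATA3 at 3.64 to 6.55 CPM, while KRT18 reached 409 to 557 CPM and EPCAM 9.17 to 14.3 CPM. PTPRC and CD3E of immune cells and CDH5 and PECAM1 of endothelial cells were at or under 0.406 CPM. CD68, a macrophage marker that other cells also express, was at 62.4 to 95.7 CPM.

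Per length of transcript, the inhibitor and 1 ligand were the most abundant of the 7 genes. The median TPM (Salmon's length-corrected abundance) over the 14 libraries was 38.0 for ERRFI1, 35.6 for HBEGF and 22.6 for EGFR. It was 9.38 for TGFA, 6.44 for AREG, 3.65 for EREG and 0.755 for BTC. ERRFI1 was among the top 2 in all 14 libraries and HBEGF in 13. The exception was a library in which EGFR took that place, CX-5461 120 min replicate 2, with 37.8 TPM. CPM per kilobase of effective length gave the same order of the 7 medians. Within a library that measure is in effect TPM times a constant, so this is no separate check. Summed over the libraries, nearly all reads of each gene lay on a single transcript, from 97.5% for EREG-201 to 99.7% for EGFR-201. In single libraries the share fell as low as 76.5% for AREG-201, 86.6% for BTC-201 and 91.8% for TGFA-201. BTC rested on 6 to 26 reads per library and AREG on 48 to 101, so that counting error is large for both, and the other members had at least 97 reads in every library.

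**Figure D1:**
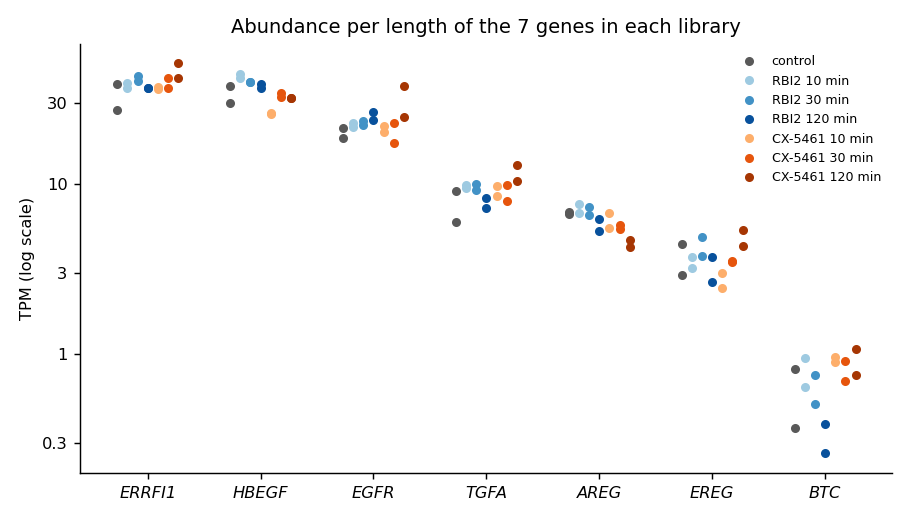
TPM (log axis) of the 7 genes, ordered by median, with 1 point per library coloured by group. ERRFI1 and HBEGF lead with medians of 38.0 and 35.6 TPM, and BTC is the lowest at 0.755 TPM.

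In the comparisons below, edgeR's quasi-likelihood test was fitted to all 14 libraries and 15426 genes, with Benjamini-Hochberg adjustment over the genes of each comparison. An adjusted p under 0.05 counted as passing, and the stricter call also asked for a log2 fold change of 1 or more in size (the fold limit). Values are CPM (library-scaled counts, after TMM), and they are comparable for 1 gene between libraries but cannot show a change shared by most genes. All comparisons with the control share its 2 libraries. In bulk RNA, fewer cells that express a gene and less RNA per cell cannot be told apart.

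Across all 7 groups, HBEGF was the only member that differed (F = 17.95, adjusted p = 0.00488, edgeR's quasi-likelihood test). Of all genes tested, 11.0% passed this test. The next lowest adjusted p values were 0.0605 for EREG, 0.0967 for AREG and 0.108 for BTC.

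EGFR (ENSG00000146648, chr7:55019017-55211628, plus strand, GRCh38), the receptor, was read at 154 and 241 CPM in the control. With RBI2 it lay at 148 and 170 CPM at 10 min, 150 and 153 CPM at 30 min, and 164 and 189 CPM at 120 min. With CX-5461 it lay at 138 and 151 CPM at 10 min, 156 and 116 CPM at 30 min, and 180 and 257 CPM at 120 min. The replicates of the control and of CX-5461 at 120 min were far apart, and in the order of the 7 group means every neighbouring pair overlapped. Against the control the log2 fold change ran from −0.54 (CX-5461 30 min, SE 0.22, 95% interval −1.02 to −0.05, adjusted p = 0.213, edgeR's quasi-likelihood test) to 0.15 (CX-5461 120 min, 95% interval −0.33 to 0.63). The direction of the last value turned with the control library, at −0.14 without control replicate 1 and 0.47 without control replicate 2. EGFR passed in none of the 15 comparisons, and these intervals do not show that it was unchanged. Under the offset for GC content and length it was lower with RBI2 at 120 min, by −0.36 against the control (adjusted p = 0.0371) and by −0.44 against CX-5461 (0.0118). Without the filter on low counts it was lower with RBI2 at 30 min (−0.34, adjusted p = 0.0345) and with CX-5461 at 10 min (−0.41, 0.00607) and 30 min (−0.49, 6.0e-04). Between CX-5461 at 30 and 120 min the log2 difference was −0.69 (adjusted p = 0.196), with an adjusted p of 3.2e-06 without the filter (−0.63), 0.0418 without control replicate 1 and 0.0468 without control replicate 2. At 10 against 120 min it was −0.60 (adjusted p = 0.173), with 7.3e-05 without the filter (−0.55), 0.0464 without control replicate 1 and 0.0473 without control replicate 2.

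The level of EGFR in a library moved with that of other long transcripts, its leading transcript being 9905 bases long. The tenth of the genes tested with the longest transcripts (1542 genes of at least 5094 bases) had a median log2 deviation, against all genes, of 0.23 in control replicate 2 and 0.27 in CX-5461 120 min replicate 2. These were the highest of the 14 libraries, and the lowest was −0.27, in CX-5461 30 min replicate 2. EGFR was high and low in the same 3 libraries. Over the 14 libraries, the correlation of its log2 CPM with this deviation was 0.96. It was 0.70 for ERRFI1, 0.64 for EREG, 0.47 for TGFA, 0.38 for HBEGF, −0.11 for AREG and −0.36 for BTC. With the tenth of genes lowest in GC content (at most 38.7% GC) it was 0.83 for ERRFI1, 0.81 for TGFA, 0.76 for EREG, 0.63 for EGFR, 0.49 for BTC, 0.10 for AREG and −0.01 for HBEGF. The libraries share depth and composition effects across genes, so these correlations are descriptions. The comparisons of EGFR with the control turned on which control library was kept. With control replicate 2 alone, the log2 fold change of EGFR was −0.60 for RBI2 10 min and −0.67 for RBI2 30 min. It was −0.74 for CX-5461 10 min and −0.83 for CX-5461 30 min. With control replicate 1 alone, the same 4 values were 0.03, −0.03, −0.09 and −0.17. RBI2 120 min stood at 0.18 with control replicate 1 alone and at −0.46 with control replicate 2 alone.

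**Figure D2:**
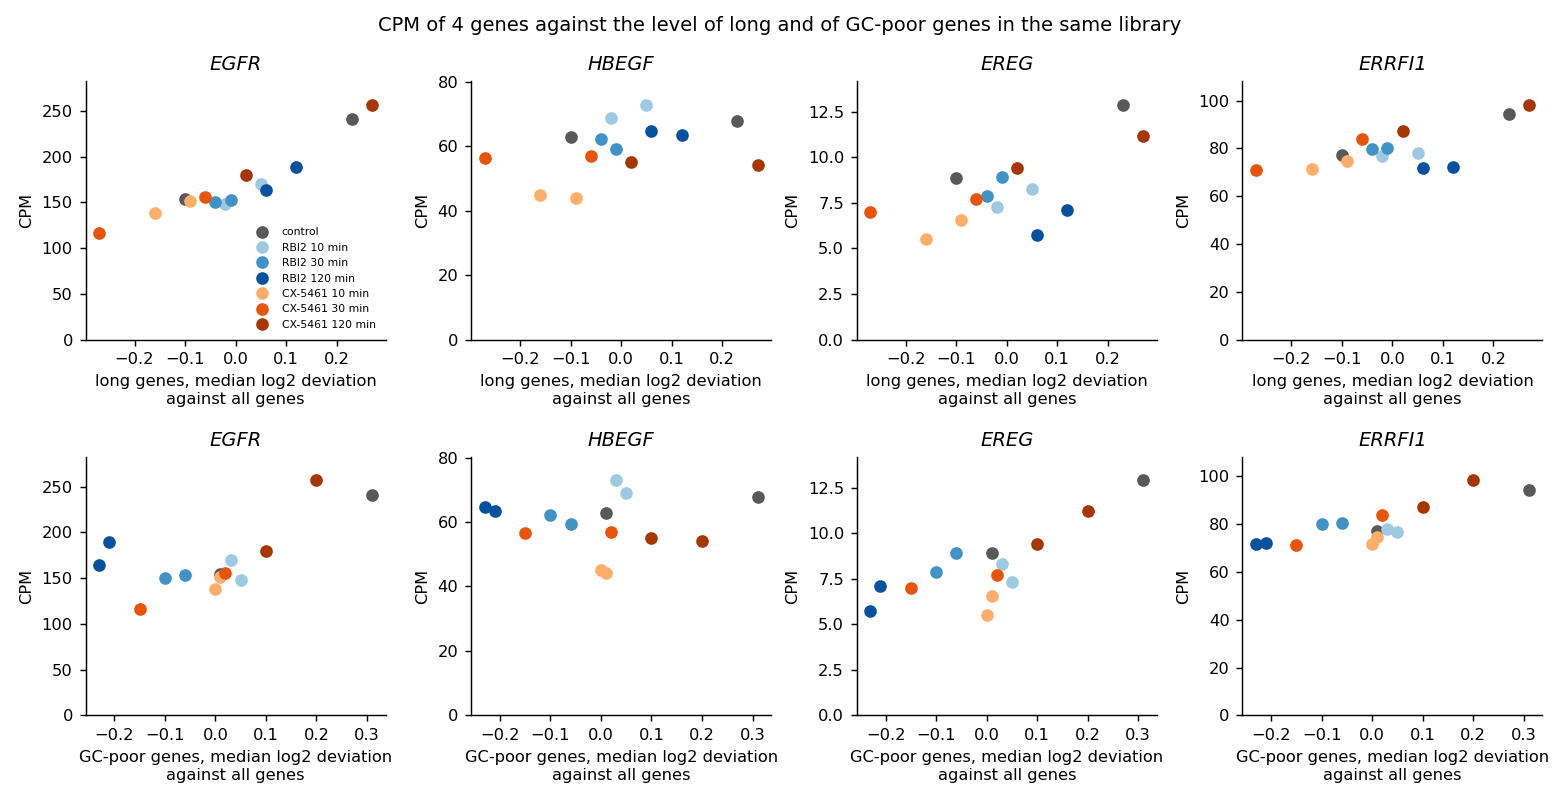
CPM of EGFR, HBEGF, EREG and ERRFI1 in each of 14 libraries against the median log2 deviation of long genes (upper row) and of GC-poor genes (lower row) in that library, coloured by group. EGFR follows the long genes (r = 0.96), while HBEGF does so less (r = 0.38) and does not follow the GC-poor genes (r = −0.01).

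HBEGF (ENSG00000113070, chr5:140332843-140346603, minus strand) encodes heparin-binding EGF-like growth factor, a ligand of EGFR and ERBB4. It was read at 62.8 and 67.8 CPM in the control. With CX-5461 it stood at 45.0 and 44.1 CPM at 10 min, 57.0 and 56.5 CPM at 30 min, and 55.1 and 54.2 CPM at 120 min. With RBI2 it stood at 68.9 and 73.0 CPM at 10 min, 62.3 and 59.3 CPM at 30 min, and 64.7 and 63.5 CPM at 120 min. All 6 CX-5461 libraries lay below both control libraries and below all 6 RBI2 libraries, and CX-5461 at 10 min held the 2 lowest values of the 14. Of the 6 neighbouring pairs in the order of group means, 5 were separate, more than for any other member. How many of all genes show such separation was not counted. At 30 min the compounds were separate with an adjusted p of only 0.868 (edgeR), so separation of 2 libraries from 2 is weak support.

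With CX-5461 at 10 min, HBEGF fell by 0.55 on the log2 scale against the control (SE 0.07, 95% interval −0.71 to −0.39, adjusted p = 0.00182, edgeR's quasi-likelihood test). RBI2 at the same label gave 0.12 (95% interval −0.04 to 0.28, adjusted p = 0.47). The direct comparison of the compounds at 10 min gave a log2 difference of 0.67 (SE 0.07, 95% interval 0.51 to 0.83, adjusted p = 5.3e-04), so that HBEGF was 1.59-fold higher with RBI2 than with CX-5461. That difference passed in 8 of 8 other settings and with each of the 14 libraries left out in turn. The fall against the control also passed with every library left out (without control replicate 2, −0.49 and adjusted p = 0.0038) and in 7 of 8 settings, and was lost only when the 4 libraries of the comparison were fitted alone (−0.54, adjusted p = 0.333).

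At the later labels the difference from the control was smaller. CX-5461 at 30 min gave a log2 fold change of −0.20 (95% interval −0.36 to −0.04, adjusted p = 0.213), and at 120 min −0.25 (95% interval −0.41 to −0.10, adjusted p = 0.293). Without control replicate 1 both passed, with −0.26 (0.0159) and −0.31 (0.0111), and without control replicate 2 neither did, with −0.13 (0.96) and −0.22 (0.265). Within CX-5461, HBEGF was lower at 10 than at 30 min by a log2 difference of −0.35 (95% interval −0.51 to −0.19, adjusted p = 0.0308, edgeR's quasi-likelihood test), which passed in 4 of 8 settings and 6 of 14 leave-outs, and at 10 against 120 min the difference was −0.30 (adjusted p = 0.0553, and 0.0125 or 0.0185 without control replicate 1 or 2). The leave-outs in which the difference between 10 and 30 min was lost were CX-5461 10 min replicate 1 (adjusted p = 0.138) and 2 (0.223), CX-5461 30 min replicate 1 (0.0929) and 2 (0.147), CX-5461 120 min replicate 1 (0.0586), RBI2 10 min replicate 2 (0.0603), RBI2 30 min replicate 2 (0.0661) and RBI2 120 min replicate 2 (0.0677). Between the compounds the log2 difference was 0.10 at 30 min (95% interval −0.06 to 0.26, adjusted p = 0.868) and 0.23 at 120 min (95% interval 0.07 to 0.39, adjusted p = 0.0531). The last value passed with DESeq2's size factors (0.26, adjusted p = 0.031), and in 7 leave-outs, namely without control replicate 1 (0.017) or 2 (0.0104), CX-5461 10 min replicate 1 (0.0482) or 2 (0.0483), CX-5461 30 min replicate 1 (0.0335), RBI2 10 min replicate 1 (0.0409) or RBI2 30 min replicate 1 (0.0455).

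**Figure D3:**
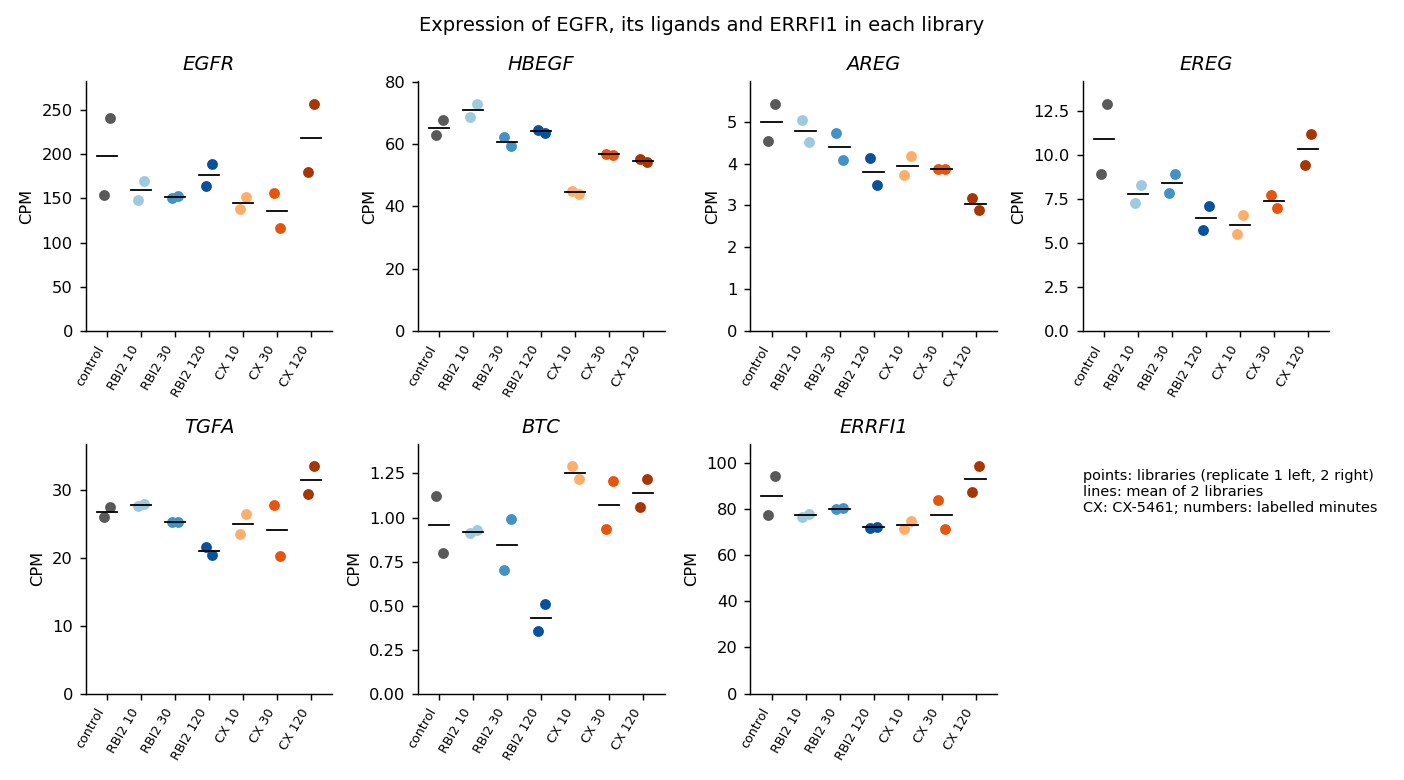
CPM of each gene in each of 14 libraries by group, with a line at the mean of 2 libraries and the vertical axis from 0. All 6 CX-5461 libraries of HBEGF lie between 44.1 and 57.0 CPM, below the 59.3 to 73.0 CPM of the control and RBI2 libraries, and BTC is lowest in the 2 libraries of RBI2 120 min (0.354 and 0.507 CPM).

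AREG (ENSG00000109321, chr4:74445136-74455005, plus strand) encodes amphiregulin, a ligand with low affinity for EGFR. It was read at 4.54 and 5.43 CPM in the control. With CX-5461 it stood at 3.72 and 4.17 CPM at 10 min, 3.86 and 3.88 CPM at 30 min, and 3.18 and 2.90 CPM at 120 min. With RBI2 it stood at 5.04 and 4.51 CPM, 4.72 and 4.09 CPM, and 4.13 and 3.48 CPM at the 3 labels in turn. Both libraries of CX-5461 at 120 min were below the other 12. Their log2 fold change against the control was −0.70 (SE 0.17, 95% interval −1.07 to −0.34, unadjusted p = 0.00155), but the adjusted p was 0.265 (edgeR's quasi-likelihood test), and AREG passed in none of the 15 comparisons. Without control replicate 1 the value was −0.83, with an adjusted p of 0.0113, and without control replicate 2 it was −0.59, with an adjusted p of 0.265. DESeq2 gave −0.72 with no adjusted p, since its own filter on low counts set AREG aside.

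EREG (ENSG00000124882, chr4:74365145-74388749, plus strand) encodes epiregulin, a ligand of EGFR and ERBB4. It was read at 8.89 and 12.9 CPM in the control. It stood at 5.50 and 6.56 CPM with CX-5461 at 10 min, 7.72 and 7.0 CPM at 30 min, and 9.41 and 11.2 CPM at 120 min. With RBI2 it stood at 7.29 and 8.28 CPM at 10 min, 7.86 and 8.91 CPM at 30 min, and 5.72 and 7.10 CPM at 120 min. The compounds thus had their lowest values at opposite ends of the course, CX-5461 at the label 10 min and RBI2 at the label 120 min, and control replicate 2 was the highest of the 14 libraries.

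EREG fell by 0.84 on the log2 scale with CX-5461 at 10 min (SE 0.20, 95% interval −1.28 to −0.41, adjusted p = 0.0353, edgeR's quasi-likelihood test). With RBI2 at 120 min it fell by 0.76 (SE 0.20, 95% interval −1.20 to −0.32, adjusted p = 0.0291). Without control replicate 2 these values shrank to −0.56 (adjusted p = 0.176) and −0.48 (0.128). With an offset for each gene's mean effective length per library, as Salmon estimated it (the length offset), they were −0.70 (0.126) and −0.44 (0.238). The effective length that Salmon gave EREG was 4031 bases in control replicate 2 and 2704 in replicate 1, a ratio of 1.49 where the median gene tested had 0.94. The ratio of the 2 control libraries was 1.45 in CPM and 0.66 in TPM, where the median gene tested had 1.03 and 0.74. With only the 4 compared libraries in the fit the sizes stayed at −0.83 and −0.75 while the adjusted p was 0.457 and 0.301. With the offset for GC content and length the value with RBI2 was −0.36 (0.102) and that with CX-5461 −0.60 (0.0167). Without control replicate 1, EREG was also lower with RBI2 at 10 min (−0.73, adjusted p = 0.013) and 30 min (−0.63, 0.018) and with CX-5461 at 30 min (−0.81, 0.00593). Without control replicate 2 those 3 values were −0.21 (0.852), −0.10 (0.879) and −0.26 (0.96). The fall with RBI2 at 120 min was also lost without either library of that group (adjusted p = 0.184 without replicate 1, 0.0815 without replicate 2). That with CX-5461 at 10 min was lost without replicate 1 (0.225) or 2 (0.104) of its own group, and in 4 further leave-outs of treated libraries, namely CX-5461 30 min replicate 2 (0.0553), RBI2 10 min replicate 2 (0.0574), RBI2 30 min replicate 1 (0.0512) and RBI2 30 min replicate 2 (0.0594).

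At 120 min EREG was lower with RBI2 than with CX-5461 by a log2 difference of −0.69 (SE 0.19, 95% interval −1.12 to −0.26, adjusted p = 0.0376, edgeR's quasi-likelihood test), and both RBI2 libraries lay below both CX-5461 libraries. The comparison does not use the control libraries directly. It passed without control replicate 1, control replicate 2 or CX-5461 30 min replicate 2, but in the other 11 leave-outs the adjusted p ran from 0.0522 (without CX-5461 30 min replicate 1) to 0.249 (without RBI2 120 min replicate 1). With the length offset the difference was −0.55 (adjusted p = 0.158), and with the offset for GC content and length it shrank to −0.25 (0.224). At 10 min the compounds differed by 0.37 (95% interval −0.07 to 0.80, adjusted p = 0.452) and at 30 min by 0.18 (95% interval −0.25 to 0.62, adjusted p = 0.941).

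TGFA (ENSG00000163235, chr2:70447284-70554193, minus strand) encodes transforming growth factor alpha, a high-affinity EGFR ligand. Its control libraries had 25.9 and 27.5 CPM. With RBI2 it was read at 27.6 and 27.9 CPM at 10 min, 25.3 and 25.3 CPM at 30 min, and 21.6 and 20.4 CPM at 120 min. With CX-5461 it was read at 23.5 and 26.4 CPM at 10 min, 27.8 and 20.2 CPM at 30 min, and 29.4 and 33.4 CPM at 120 min. At 120 min the CX-5461 libraries were the highest of the 14 and the RBI2 libraries were among the 3 lowest. Neither group passed against the control, with a log2 fold change of 0.23 for CX-5461 (95% interval −0.07 to 0.53, adjusted p = 0.492) and −0.35 for RBI2 (95% interval −0.65 to −0.04, adjusted p = 0.101). The second passed without CX-5461 30 min replicate 1 (0.0442) or 2 (0.0437). The direct difference at 120 min was −0.58 (SE 0.14, 95% interval −0.88 to −0.28, adjusted p = 0.0207, edgeR's quasi-likelihood test), with TGFA lower with RBI2. It passed in 8 of 8 settings, the length offset (−0.55, adjusted p = 0.0452) and the GC content and length offset (−0.43, adjusted p = 0.0161) included, and in 11 of 14 leave-outs. It was lost without CX-5461 120 min replicate 2 (−0.45, adjusted p = 0.144) and without RBI2 120 min replicate 1 (0.106) or 2 (0.118).

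BTC (ENSG00000174808, chr4:74744759-74794523, minus strand) encodes betacellulin, a ligand of EGFR and ERBB4. It was read at 1.12 and 0.799 CPM in the control. It stood at 0.911 and 0.927, 0.702 and 0.99, and 0.354 and 0.507 CPM with RBI2 at 10, 30 and 120 min. With CX-5461 it stood at 1.29 and 1.22, 0.932 and 1.21, and 1.06 and 1.22 CPM. The RBI2 120 min libraries, with 6 and 7 reads, were the lowest of the 14, and the CX-5461 120 min libraries had 26 and 21 reads. Between these groups BTC was lower with RBI2 by a log2 difference of −1.40 (SE 0.35, 95% interval −2.18 to −0.62, adjusted p = 0.0256, edgeR's quasi-likelihood test). This was the only difference of a member past both limits. Against the control, RBI2 at 120 min gave −1.17 (95% interval −1.98 to −0.36, adjusted p = 0.0512), or −0.91 (0.221) and −1.39 (0.0759) without control replicate 1 and 2. The direct difference was lost in 4 of the 7 settings that gave an adjusted p. These were no filter on low counts (−1.38, adjusted p = 0.0698), the length offset (−1.42, 0.0906), the GC content and length offset (−1.06, 0.0935) and that offset with a replicate block (−1.06, 0.11). It was also lost without RBI2 120 min replicate 1 (−1.10, 0.207) or 2 (−1.67, 0.088), CX-5461 120 min replicate 1 (−1.51, 0.0617) or 2 (−1.27, 0.146), and either library of CX-5461 at 10 min (−1.35 and 0.0505 in both cases).

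ERRFI1 (ENSG00000116285, chr1:8004404-8026309, minus strand), the inhibitor, was read at 77.2 and 94.4 CPM in the control. With RBI2 it stood at 76.7 and 78.0 CPM at 10 min, 79.9 and 80.4 CPM at 30 min, and 71.7 and 72.3 CPM at 120 min. With CX-5461 it stood at 71.5 and 74.7 CPM at 10 min, 84.0 and 71.1 CPM at 30 min, and 87.2 and 98.4 CPM at 120 min. The highest values were in control replicate 2 and CX-5461 120 min replicate 2, as for EGFR and EREG. ERRFI1 passed against the control in no group, though without control replicate 1 it was lower with RBI2 at 120 min (−0.40, adjusted p = 0.00903) and with CX-5461 at 10 min (−0.37, 0.0153) and 30 min (−0.29, 0.0449). Without control replicate 2 those 3 values were −0.11 (0.523), −0.08 (0.83) and 0.02 (0.994). At 120 min it was lower with RBI2 than with CX-5461 by a log2 difference of −0.37 (SE 0.11, 95% interval −0.61 to −0.12, adjusted p = 0.0448, edgeR's quasi-likelihood test). That call passed without either control library or either library of CX-5461 at 30 min, but in the other 10 leave-outs the adjusted p ran from 0.059 (without CX-5461 120 min replicate 1) to 0.273 (without CX-5461 120 min replicate 2). With the length offset it had an adjusted p of 0.135 and with the replicate block 0.0555. The offset for GC content and length reduced the difference to −0.17. A gene on the opposite strand that overlaps the end of ERRFI1, ENSG00000284747, had 152 reads over all 14 libraries, and the library kit keeps the strand.

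Counted over the members, none passed against the control with RBI2 at 10 or 30 min. Of the 7 members, 0 passed with RBI2 at 10 min (edgeR; 1 at an unadjusted p under 0.05, as had 12.9% of all genes, and 0 with DESeq2), where 0.201% of all genes did and 0.0778% with the fold limit. With RBI2 at 30 min 0 passed (0 unadjusted, beside 25.8% of all genes, and 0 with DESeq2), against 0.0713% of all genes and 0.0389% with the fold limit. With RBI2 at 120 min 1 passed, EREG, as lower, against 18.0% of all genes in either direction, 9.07% lower, and 1.82% with the fold limit. The members' share is thus near the background there, and their median log2 fold change was −0.35 where that over all genes was 0.01. All 7 values were negative, but without control replicate 2 EGFR (0.18) and HBEGF (0.02) were positive and the median was −0.25. With the length offset EGFR (0.07) was positive and the median was −0.20. With the GC content and length offset the 1 member that passed was EGFR (−0.36, adjusted p = 0.0371) in place of EREG.

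With CX-5461 at 10 min 2 of 7 passed, HBEGF and EREG, both lower, where 4.77% of all genes passed, 2.98% lower, and 1.64% with the fold limit. The median over the members was −0.33 and over all genes −0.04, but without control replicate 2 the members' median was −0.09 and HBEGF alone passed, and with the offset for GC content and length it was −0.10. With CX-5461 at 30 min 0 passed (edgeR; 3 at an unadjusted p under 0.05, beside 22.9% of all genes, and 0 with DESeq2), and 0% of all genes did, with or without the fold limit. With CX-5461 at 120 min 0 passed (2 unadjusted, beside 12.4% of all genes, and 0 with DESeq2), against 0.0778% of all genes and 0.0454% with the fold limit.

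Between the compounds at 10 min 1 member passed, HBEGF, as higher with RBI2, against 3.06% of all genes and 1.04% with the fold limit. At 30 min 0 passed (edgeR; 0 unadjusted, beside 7.79% of all genes, and 0 with DESeq2), against 0.0130% of all genes with either rule. At 120 min 4 passed as lower with RBI2 (EREG, TGFA, BTC and ERRFI1), against 16.1% of all genes in either direction, 10.9% lower, and 1.67% with the fold limit. With the length offset the count was 1 (TGFA), beside 2.20% of all genes lower and 2.07% higher. All 4 calls were lost without RBI2 120 min replicate 1 or 2 or CX-5461 120 min replicate 2. Nearly all calls over all genes were lost in these fits too. Without CX-5461 120 min replicate 1 the calls of EREG, BTC and ERRFI1 were lost and that of TGFA was not. Without either library of CX-5461 at 10 min, TGFA alone of the 4 passed. HBEGF (0.23) and AREG (0.32) had a positive log2 difference in the same comparison, and the median over the members was −0.37 beside 0.01 over all genes (−0.24 without CX-5461 120 min replicate 2). DESeq2 also passed 4, with HBEGF (adjusted p = 0.0157) in place of BTC, for which it gave no adjusted p.

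Between times within a compound, the single member that passed was HBEGF, at 10 against 30 min of CX-5461, where 2.43% of all genes passed. For CX-5461, 0 passed at 10 against 120 min (edgeR; 6 unadjusted, beside 20.1% of all genes, and 0 with DESeq2), where 3.12% of all genes did, and 0 at 30 against 120 min (4 unadjusted, beside 19.3%, and 0 with DESeq2), where 0.0130% did. At 10 against 120 min of CX-5461, EREG had a log2 difference of −0.77 (adjusted p = 0.0595), which passed with no filter (−0.73, 0.00889), only the compared groups (−0.71, 0.0353), the replicate block (−0.78, 0.0276), that block with the GC content and length offset (−0.49, 0.0222) and without control replicate 1 (0.0116) or 2 (0.0115). ERRFI1 (−0.34, adjusted p = 0.123) also passed there without control replicate 1 (0.0274) or 2 (0.0289). For RBI2, 0 passed at 10 against 30 min (1 unadjusted, beside 9.21% of all genes, and 0 with DESeq2), where 0.188% of all genes did. At 10 against 120 min 0 passed (2 unadjusted, beside 24.0%, and 0 with DESeq2), where 6.44% did, and at 30 against 120 min 0 passed (1 unadjusted, beside 10.3%, and 0 with DESeq2), where 0.0130% did. At 10 against 120 min of RBI2, TGFA (0.40, adjusted p = 0.105) passed with only the compared groups (0.0169), the GC content and length offset (0.0481), that offset with the replicate block (0.0482) and without CX-5461 30 min replicate 1 (0.0431). HBEGF (0.15, adjusted p = 0.245) passed there with the GC content and length offset (0.23, 0.0337) and with the block added (0.0468).

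**Figure D4:**
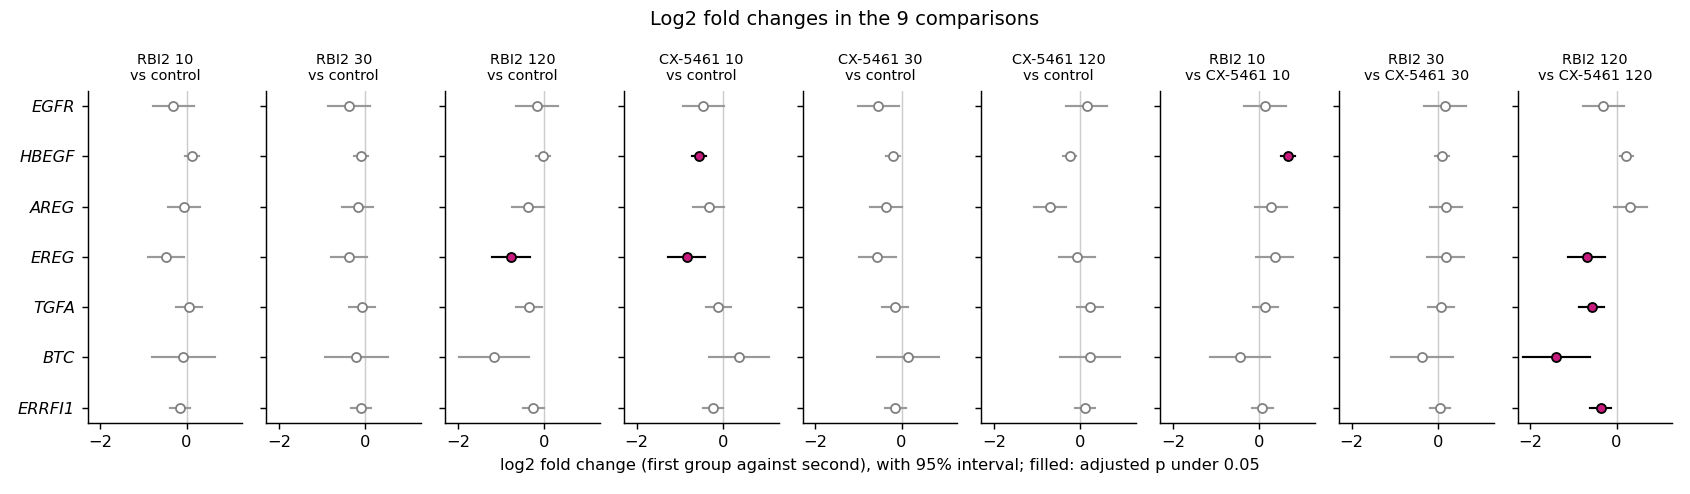
Log2 fold change of each gene (point) with its 95% interval (line) in the 9 comparisons, filled where the adjusted p is under 0.05. HBEGF stands out at 10 min, at −0.55 with CX-5461 against the control and 0.67 between the compounds, and 4 genes between −0.37 and −1.40 are filled in the comparison of RBI2 with CX-5461 at 120 min.

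The other genes of the ErbB pathway were described from lists of 63 genes, of which 58 were tested. ERBB2, the partner receptor without a ligand of its own, was at 52.5 to 77.9 CPM, while ERBB4 had at most 0.0607 CPM and was not tested. NRG1, a ligand of ERBB3 and ERBB4, was at 41.6 to 53.2 CPM, and EGF at 1.40 to 2.79 CPM. The proteases that release the ligands were all read, with ADAM10 at 104 to 192 CPM and ADAM17 at 50.1 to 68.0 CPM.

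With RBI2 at 120 min, 18 of the 58 passed against the control, 10 higher and 8 lower, beside 8.90% of all genes higher and 9.07% lower, and none of these reached the fold limit. The downstream kinase list had 6 higher and 2 lower of 18, and the list of negative regulators had 1 higher (TNK2) and 4 lower of 10. With the GC content and length offset each of these lists had 1 higher and 2 lower, beside 3.60% and 5.08% of all genes. Without control replicate 2, 4 of the 58 were higher and 1 lower, beside 5.62% and 2.66% of all genes, with 3 higher and 0 lower kinases and 1 higher and 1 lower negative regulator. Without control replicate 1, 19 were higher and 25 lower, beside 20.6% and 22.5%. With the length offset 0 of the pathway genes passed, beside 0.972% of all genes higher and 0.0583% lower. With only the compared groups 0 passed, beside 0% of all genes. The pathway calls were also lost without either library of RBI2 at 120 min, and most calls over all genes were lost in these fits too. With the GC content and length offset 2 of the pathway genes were higher and 7 lower, beside 3.60% and 5.08% of all genes. Some were chosen for naming after their values were seen: ERBB2 rose by 0.41 (SE 0.10, adjusted p = 0.0202, edgeR's quasi-likelihood test), TNK2, a kinase that binds activated EGFR, rose by 0.86 (SE 0.16, adjusted p = 0.0115), and ADAM9, a metalloprotease, fell by 0.74 (SE 0.19, adjusted p = 0.0286). Without control replicate 2 the values were 0.30 (adjusted p = 0.0629), 0.58 (0.0129) and −0.39 (0.121), and with the GC content and length offset 0.06 (0.593), 0.34 (0.0195) and −0.36 (0.0266). In the direct comparison at 120 min 14 of 58 passed, all lower with RBI2, beside the 10.9% of all genes that were lower and 5.28% higher. With either control library left out, more of the 58 passed and some of them were higher. More of all genes also passed there, in both directions. At this label the GC-poor genes deviated by −0.23 and −0.21 in the RBI2 libraries and by 0.10 and 0.20 in those of CX-5461. With the GC content and length offset 10 pathway genes were lower and 1 higher, beside 7.80% and 6.02% of all genes. Of these pathway genes, 8 were among the 14. With the length offset 3 were lower and 2 higher, beside 2.20% and 2.07%. The calls were lost without RBI2 120 min replicate 1 or 2 or CX-5461 120 min replicate 2. Nearly all calls over all genes were lost in these fits too. Among the 14 was ADAM10 (−0.67, SE 0.16, adjusted p = 0.0207, edgeR's quasi-likelihood test), with −0.32 (0.0132) under the GC content and length offset and −1.27 (0.115) under the length offset. It was lost in the same 3 leave-outs (adjusted p = 0.13, 0.0944 and 0.148).

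At 10 min 2 of the 58 pathway genes passed with CX-5461 against the control, 1 higher and 1 lower, beside 1.80% of all genes higher and 2.98% lower. With no filter on low counts, 6 of 61 were higher and 3 lower, beside 3.28% and 3.50%. The replicate block with the GC content and length offset gave 3 higher and 2 lower, beside 3.64% and 3.90%. Without control replicate 1, 15 were higher and 15 lower, beside 17.7% and 20.0% of all genes. LRIG2, a transmembrane protein of the family of the EGFR inhibitor LRIG1, was read at 10.0 and 9.62 CPM with CX-5461 at 10 min, at 16.8 and 22.0 CPM in the control and at 18.0 and 22.9 CPM with RBI2 at 10 min. The CX-5461 libraries lay below all of the others named. LRIG2 fell by 0.97 against the control (SE 0.15, adjusted p = 0.00492, edgeR's quasi-likelihood test) and was higher with RBI2 than with CX-5461 by 1.06 (SE 0.15, adjusted p = 0.00331). The fall was lost without CX-5461 10 min replicate 2 (adjusted p = 0.0553) and with only the compared groups in the fit (−0.96, adjusted p = 0.295), and the direct difference passed in all 8 settings and 14 leave-outs. RHBDF1, an inactive rhomboid protein that helps ADAM17 to the cell surface, rose by 0.60 with CX-5461 (SE 0.13, adjusted p = 0.0237), but did not pass without control replicate 2 (0.51, 0.111), either library of its own group (0.136 and 0.167) or RBI2 120 min replicate 1 (0.0516), nor with the GC content and length offset (0.35, 0.0807), the length offset (0.0976) or only the compared groups (0.38). In the direct comparison at 10 min LRIG2 was the only one of the 58 that passed, beside 3.06% of all genes. In RBI2 at 10 and 30 min, CX-5461 at 30 and 120 min and the direct comparison at 30 min 0 of the 58 passed by edgeR, where 0.201%, 0.0713%, 0%, 0.0778% and 0.0130% of all genes did. At an unadjusted p under 0.05 there were 7 of the 58 with RBI2 at 10 min, beside 12.9% of all genes, and 28 at 30 min, beside 25.8%. There were 21 with CX-5461 at 30 min, beside 22.9%, and 11 at 120 min, beside 12.4%, and 2 in the direct comparison, beside 7.79%.

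Across the 14 libraries, EGFR, EREG, TGFA and ERRFI1 had correlations of log2 CPM with one another from 0.56 (EGFR with TGFA) to 0.89 (EREG with ERRFI1). These were also the 4 members with the highest correlations with the long and with the GC-poor genes. All other pairs of members lay between −0.54 (HBEGF with BTC) and 0.50 (HBEGF with AREG). The genes most like each member over the libraries, among 10374 non-member genes, were EIF4G3 (r = 0.980) and NOTCH2 (0.979) for EGFR. They were ZNF114 (0.945) and EDN1 (0.935) for HBEGF, SPATA2 (0.802) and UPF3B (0.799) for AREG, and SH3D19 (0.937) and SPICE1 (0.936) for EREG. They were SOAT1 (0.967) and ATP2C1 (0.962) for TGFA, ANXA7 (0.928) and HADHB (0.902) for BTC, and PHLDB2 (0.976) and GCNT2 (0.964) for ERRFI1. These are the highest of many values over few libraries. Over the 7 group means other genes came first for every member.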

How the data were processed

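RNA was sequenced from 14 libraries of MDA-MB-231 cells, in 7 groups of 2 taken from the sample labels. The authors captured poly(A) RNA, made stranded libraries, removed reads aligned to the rDNA and quantified the rest on GRCh38 transcripts with Salmon (1.3.0 in the submitters' processing notes). The deposited values are estimated counts of reads per transcript, not normalized, with the TPM and the effective length that the authors' Salmon run gave. Here transcripts were matched to GENCODE 44 (225662 of 228754, losing 1.03% to 1.13% of the reads), and estimated counts were summed per gene and rounded. Counts were tested with edgeR 4.0.16 (TMM, filterByExpr with minimum count 10, quasi-likelihood F test, 1 model of 7 groups, common coefficient of variation 12.27%) in R 4.3.3, with Benjamini-Hochberg adjustment over 15426 genes. The pipeline was tested on simulated data. TPM served for levels between genes, and log2 CPM (prior count 2) for correlations, which covered genes with a symbol and a mean of at least 5 CPM.

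The members and lists were chosen with earlier results of these data known. The genes named were the 7 members, pathway genes past both limits in any comparison, and the 2 genes most correlated with each member. ERBB2, TNK2, ADAM9, ADAM10 and RHBDF1 were named outside this rule, as were levels of receptors, ligands and proteases. Alternatives were DESeq2 1.42.0, edgeR with its size factors, all genes without the filter, and an offset for the average effective length that Salmon gave. Others were an offset for GC content and length, a replicate block, the block with that offset, and only the compared groups. The last were an unadjusted p, no fold limit, and each library left out. Counts by the adjusted p alone, the pathway counts and the members' medians under each alternative were added after the data were examined. Promoters (GRCh38.p14) came from RefSeq, in which all 7 members matched.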

Additional observations from a re-analysis of the deposited data

Results flagged for a closer look

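Differences between the compounds at the same label, or between times within a compound, that passed a test of the difference itself were set apart for a closer look. HBEGF was higher with RBI2 than with CX-5461 at 10 min by 0.67 on the log2 scale (adjusted p = 5.3e-04, edgeR's quasi-likelihood test, both RBI2 libraries above both CX-5461 libraries). With CX-5461 it differed by −0.35 between 10 and 30 min (adjusted p = 0.0308). LRIG2 was higher with RBI2 than with CX-5461 at 10 min by 1.06 (adjusted p = 0.00331). At 120 min 4 members were lower with RBI2 than with CX-5461 in both libraries. These were EREG by a log2 difference of −0.69 (adjusted p = 0.0376, edgeR), TGFA by −0.58 (0.0207), BTC by −1.40 (0.0256) and ERRFI1 by −0.37 (0.0448). Of all genes, 10.9% passed as lower in that comparison and 5.28% as higher. The calls of these members were lost without RBI2 120 min replicate 1 or 2 or CX-5461 120 min replicate 2, as were nearly all calls over all genes. At that label the GC-poor genes had a median log2 deviation of −0.23 and −0.21 in the RBI2 libraries and of 0.10 and 0.20 in the CX-5461 libraries. Under the offset for GC content and length the difference in TGFA was −0.43 with an adjusted p of 0.0161, and that in ERRFI1 passed at a smaller −0.17, while those of EREG (−0.25, 0.224) and BTC (−1.06, 0.0935) did not pass.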

How the results depend on the processing

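The number of members past both limits was 0 in every comparison except RBI2 against CX-5461 at 120 min, where it was 1 (BTC). BTC was lost there in some of the leave-outs. The number there was 0 with DESeq2 (no adjusted p for BTC), the GC content and length offset and no filter on low counts. It was also 0 with the length offset and with the replicate block with the GC content and length offset. Without a fold limit it was 4 there, 1 for RBI2 120 min and 2 for CX-5461 10 min against the control, and 1 between the compounds at 10 min. An unadjusted p with the fold limit gave 1 for RBI2 120 min. Leaving out a library gave 0 to 1 for RBI2 120 min and for CX-5461 10 min against the control, with 1 in both cases without control replicate 1.

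By the adjusted p alone, no filter on low counts gave 1 for RBI2 30 min and 1 for CX-5461 30 min, against 0. With only the compared groups in the model 0 passed for RBI2 120 min and 0 for CX-5461 10 min, and with the length offset 0 and 1. At 120 min between the compounds (4 passed) the count was 1 with the length offset (TGFA) and 2 with the replicate block and the GC content and length offset, of which TGFA was among the 4 and EGFR was not. With each library left out the count was 0 to 2 for RBI2 at 10, 30 and 120 min and CX-5461 at 120 min, 1 to 4 for CX-5461 at 10 min, 0 to 4 for CX-5461 at 30 min, and 0 to 5 between the compounds at 120 min. The highest count against the control always included the fit without control replicate 1. In that fit more of all genes also passed, in both directions, for RBI2 at 120 min and CX-5461 at 10 min. At 120 min between the compounds the calls were lost without RBI2 120 min replicate 1 or 2 or CX-5461 120 min replicate 2. Nearly all calls over all genes were lost in these fits too.

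The replicate numbers did not pair the samples: correlations of same-numbered deviations over 21 pairs of groups ran from −0.447 to 0.377 (median 0.009). The replicate block left 3 of the 4 members past the adjusted p at 120 min between the compounds (ERRFI1 at 0.0555) and the counts of the other 8 comparisons against the control or between the compounds as they were. Between times, under the block HBEGF at 10 against 30 min of CX-5461 no longer passed (0.0544) and EREG at 10 against 120 min did (0.0276). The values of the members and of LRIG2 that passed in the reported comparisons kept their sign in every setting run, but some values of EGFR and ERRFI1 that passed only under an alternative did not. Depth limits BTC (6 to 26 reads) and AREG (48 to 101), and 2 libraries per group limit every comparison.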
